A study of Mus musculus with 6 samples.

Results

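The 8 genes described here encode the melanin-making enzymes, structural proteins and transporters of the melanosome and the transcription factor that drives them: Tyrp1, Dct, Tyr, Pmel, Mlana, Slc45a2, Oca2 and Mitf. They were chosen by name, with earlier results of these data known, and every probe set that the platform annotation gave to one of them was used. This gave 14 of the 45037 probe sets that were not controls, where a probe set is a group of short oligonucleotides that reports on 1 transcript. The 6 arrays each measured RNA from 2 pooled mouse retinas taken at postnatal day 21. Of these, 3 were labelled ERRβ -/- knockout on a mixed C57Bl/6 x Sv129 background, and the 3 others were labelled wildtype on C57Bl/6. ERRβ is an orphan nuclear receptor encoded by Esrrb, the sex of all samples was given as mixed, and the comparison asks which retinal transcripts differ between the genotypes. The strain differs along with the genotype, and the shares of the 2 in any difference given below cannot be told apart.

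A trimmed mean of 500 was found for replicates 1 and 2 of both groups and of 150 for replicate 3 of both groups, so 2 scaling targets had been used. These are called the 2 scaling sets, and labelled knockout and wildtype arrays were compared within them. Arrays correlated at 0.953 to 0.978 within a scaling set and at 0.799 to 0.864 between the sets (Pearson, log2 intensity across kept probe sets), so the sets differed in more than scale. Sag, which encodes rod arrestin, read 39278, 47125 and 7566 in labelled knockout replicates 1, 2 and 3, against 51347, 46520 and 7551 in wildtype replicates 1, 2 and 3. Of the 14 rod genes measured, Prph2, a disc rim protein of the outer segment, was near the array median at the scale of 150 alone, with 83.5 in labelled knockout and 89.4 in wildtype. Esrrb itself was not lower in the labelled knockout arrays, where its brightest probe set read 3435, 4012 and 2397, against 2951, 2934 and 1771 in wildtype. Its place relative to the targeted exons was not analysed here, so Esrrb gives no check of the labels, and "labelled knockout" is used for these arrays below.

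Melanin is made in melanosomes, lysosome-related organelles of pigment cells. In the eye these cells are the retinal pigment epithelium, a single layer that lies against the photoreceptors, the melanocytes of the choroid and iris, and the pigmented layers of the ciliary body and iris. The neural retina itself makes no melanin. Tyrosinase starts the pathway from tyrosine, the related enzymes Dct and Tyrp1 act on later intermediates, Pmel forms the fibrils on which melanin is laid down, and Mlana is a small membrane protein of early melanosomes that binds Pmel. Slc45a2 and Oca2 are membrane transporters that set the pH and ion content of the organelle. Mitf is a basic helix-loop-helix leucine zipper factor that binds the M-box, an extended E-box in the promoters of tyrosinase family genes.

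The promoters of the 3 tyrosinase family genes are shown because the core letters of the M-box lie in each of them. The windows are RefSeq sequences of GRCm38.p6 that run from 250 bases before the annotated start site to 50 bases after it, and 5 of the 8 genes, Tyrp1, Tyr, Dct, Oca2 and Mitf, had an entry. The Tyrp1 window is chr4:80833963-80834262 on the plus strand, the Tyr window chr7:87493463-87493762 on the minus strand, and the Dct window chr14:118052197-118052496 on the minus strand. Capitals mark the 7-letter core TCATGTG or its reverse complement CACATGA, and all other bases are in lower case.
Tyrp1: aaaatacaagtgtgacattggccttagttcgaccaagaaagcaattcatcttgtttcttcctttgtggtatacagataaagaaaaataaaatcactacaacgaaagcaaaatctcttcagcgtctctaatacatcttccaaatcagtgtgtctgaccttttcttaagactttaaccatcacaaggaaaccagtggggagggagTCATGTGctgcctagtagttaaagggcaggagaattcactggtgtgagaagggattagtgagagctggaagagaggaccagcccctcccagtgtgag
Tyr: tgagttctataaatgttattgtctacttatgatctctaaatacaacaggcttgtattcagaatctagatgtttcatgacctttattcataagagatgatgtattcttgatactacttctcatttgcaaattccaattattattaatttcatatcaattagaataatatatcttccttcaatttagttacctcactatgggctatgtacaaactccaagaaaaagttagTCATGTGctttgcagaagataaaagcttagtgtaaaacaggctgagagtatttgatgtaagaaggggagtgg
Dct: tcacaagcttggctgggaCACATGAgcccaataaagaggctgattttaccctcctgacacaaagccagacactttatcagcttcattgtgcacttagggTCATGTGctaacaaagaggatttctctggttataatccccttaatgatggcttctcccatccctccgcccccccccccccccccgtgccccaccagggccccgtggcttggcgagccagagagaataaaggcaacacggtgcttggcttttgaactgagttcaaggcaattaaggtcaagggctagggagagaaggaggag

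The core of the Tyrp1 window with the 2 bases on either side of it, from base -49 to -39 relative to the start site, reads AGTCATGTGCT. Searched on both strands, the same 11 letters occur in the Tyr window, from -24 to -14. In all, 7 of 32851 windows in the RefSeq table (0.0213%) hold them, that of Tyrp1 included. The Dct window holds the 7-letter core at 2 places. At -153 to -143 its 11 bases differ from AGTCATGTGCT by A1G, and at -234 to -224, on the opposite strand, they differ by A1G, G2C, C10T and T11C, with positions counted from the first letter of the 11. The core TCATGTG, which lies within the 11 letters, is found in 1239 of the 32851 windows (3.77%). The Oca2 window held only the 6 letters CATGTG inside that core, on the opposite strand at -186 to -181, and these occur in 14.2% of windows. None of the 3 Mitf windows held the 6 letters, and none of the windows of the 5 genes held the E-box CACGTG, which occurs in 7.15% of windows. A match is a description of letters, and binding was not measured here.

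**Figure D1:**
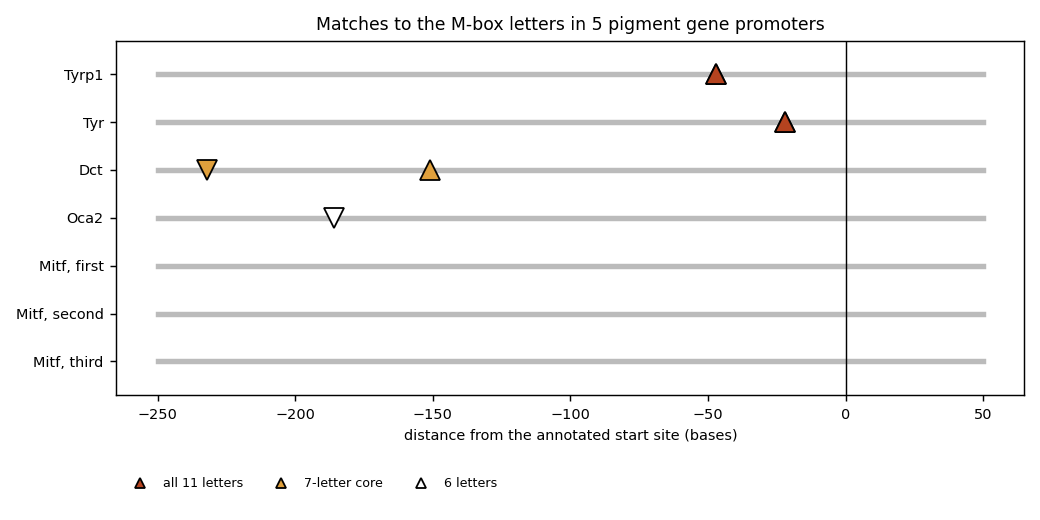
Matches to the M-box letters in the promoter windows of 5 pigment genes (3 windows for Mitf), by distance from the annotated start site in bases. Red triangles mark all 11 letters, orange the 7-letter core alone and white the 6 letters alone, pointing up on the gene's strand and down on the opposite one; Tyrp1 and Tyr hold the 11 letters close to the start site, from -49 and -24, and the Mitf windows hold no match.

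Among the melanin enzymes, Tyrp1 and Dct rose in the labelled knockout arrays. The brightest Tyrp1 probe set (1415861_at) read 2745 and 2741 in labelled knockout and 1694 and 1583 in wildtype arrays scaled to 500, and 128 in labelled knockout against 73.3 in wildtype at the scale of 150. Labelled knockout was above wildtype without overlap in both scaling sets, and the values within a group and scaling set lay close together. The log2 fold change, labelled knockout minus wildtype, was 0.77 ± 0.091 over all 6 arrays (SE of a limma fit with the scaling set as a block, n = 3 per group), a 1.70-fold higher intensity with an adjusted p of 0.00397. The second Tyrp1 probe set (1415862_at) read 1564, 2092 and 199 in labelled knockout replicates 1, 2 and 3 and 1576, 1298 and 69.7 in wildtype replicates 1, 2 and 3. Its groups overlapped at the scale of 500, and it did not pass (0.73 ± 0.22, adjusted p = 0.118). The third (1439409_x_at), whose suffix marks probes that can bind related transcripts, read 2170, 1765 and 122 against 1557, 1062 and 72.9 in the same order. It did not overlap, but did not pass either (0.65 ± 0.15, adjusted p = 0.06), and it passed in the arrays scaled to 500 alone (adjusted p = 0.0311). All 3 Tyrp1 probe sets had positive fold changes in both scaling sets, from 0.34 to 0.74 at 500 and from 0.74 to 1.51 at 150.

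Dct, dopachrome tautomerase, was measured by 1 probe set (1418028_at). It read 8764, 9054 and 338 in labelled knockout replicates 1, 2 and 3, against 6669, 6052 and 183 in wildtype replicates 1, 2 and 3. No labelled knockout array fell within the wildtype range of its scaling set. The log2 fold change was 0.62 ± 0.097 (1.54-fold, adjusted p = 0.0157), with 0.49 at the scale of 500 and 0.89 at 150. This call was lost without labelled knockout replicate 1 (adjusted p = 0.0594), without labelled knockout replicate 2 (0.084) or without wildtype replicate 2 (0.139), while the fold change stayed between 0.49 and 0.70 with any 1 array left out.

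Tyr, tyrosinase, the first enzyme of the pathway, did not pass on any of its 3 probe sets. The brightest (1417717_a_at) read 892, 882 and 49.6 in labelled knockout replicates 1, 2 and 3, and 663, 756 and 24.7 in wildtype replicates 1, 2 and 3. These values did not overlap within either scaling set, but those at 150 lay below their array medians of 61.5 in labelled knockout and 57.3 in wildtype. The log2 fold change was 0.55 ± 0.17 (adjusted p = 0.119), with 0.33 at 500 and 1.01 at 150. The other 2 probe sets of Tyr gave 0.54 ± 0.28 (1448821_at, adjusted p = 0.322) and 0.56 ± 0.37 (1456095_at, adjusted p = 0.424), close in size to the first but with wider errors. The first of them read 176, 131 and 38.3 in labelled knockout and 89.3, 105 and 30.9 in wildtype, and the second 191, 207 and 12.3 in labelled knockout and 149, 82.3 and 12.3 in wildtype replicates 1, 2 and 3. Both were dim, with 4 and 3 of their 6 values under the array median, and 1456095_at was nearly the same in both groups at the scale of 150.

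The melanosome structural genes Pmel and Mlana had the largest fold changes of the 8 genes. Pmel (1422523_at) read 3351, 3500 and 277 in labelled knockout replicates 1, 2 and 3, against 2129, 1562 and 110 in wildtype replicates 1, 2 and 3. The groups did not overlap, although the wildtype pair at 500 differed by 1.36 times. Pmel rose by 1.05 ± 0.13 on the log2 scale (2.07-fold, adjusted p = 0.00573), with 0.91 at 500 and 1.33 at 150. Mlana (1430635_at) read 1432, 1273 and 54.5 in labelled knockout and 700, 676 and 17.7 in wildtype replicates 1, 2 and 3. It rose by 1.19 ± 0.16 (2.28-fold, adjusted p = 0.00794), with 0.97 at 500 and 1.62 at 150. Its values at 150 lay under the array medians, so the size at that scale is approximate, and with 16 added to every intensity the change was 0.99 and still passed.

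These calls rest on small numbers of arrays. Without wildtype replicate 2, adjusted p was 0.0622 for Tyrp1, 0.0666 for Pmel and 0.0699 for Mlana, and without labelled knockout replicate 1 it was 0.0677 for Mlana. With no term for the scaling set, none of the 4 genes passed (adjusted p = 1.00 for each), since the difference between the sets then enters the error. With no variance trend none passed either, with an adjusted p of 0.156 for Tyrp1, 0.235 for Dct, 0.195 for Pmel and 0.167 for Mlana. With the replicate number as a block, Tyrp1, Dct, Pmel and Mlana all passed.

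The transporter genes were dimmer. Oca2, the melanosomal membrane protein of the pink-eyed dilution locus (1418211_at), read 404, 377 and 79.1 in labelled knockout replicates 1, 2 and 3, and 281, 235 and 48.3 in wildtype replicates 1, 2 and 3. The groups did not overlap, and the changes at 500 and 150 were 0.60 and 0.71, but Oca2 did not pass (0.64 ± 0.17, adjusted p = 0.0834). Slc45a2, the transporter of the underwhite locus, had 2 probe sets with changes of opposite sign, 0.73 ± 0.55 (1437430_at, adjusted p = 0.492) and -0.28 ± 0.46 (1451055_at, adjusted p = 0.774). The first read 94.4, 147 and 69.6 in labelled knockout and 142, 26.7 and 55.9 in wildtype replicates 1, 2 and 3. The wildtype pair at 500 thus differed by 5.33 times, and without wildtype replicate 2 the change was -0.018. The second read 112, 42.2 and 47.5 in labelled knockout and 73.9, 144 and 37.7 in wildtype replicates 1, 2 and 3, with overlap at 500. No direction is given for Slc45a2.

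Mitf did not pass. Its brighter probe set (1455214_at) read 485, 442 and 118 in labelled knockout replicates 1, 2 and 3, against 400, 414 and 140 in wildtype replicates 1, 2 and 3. Labelled knockout was higher at 500 and lower at 150, by 0.19 and -0.25 on the log2 scale, and the change over all arrays was 0.04 ± 0.15 (adjusted p = 0.908). The other probe set (1422025_at) was the single one of the 14 that failed the filter on low intensity, was under the median on all 6 arrays, and gave 0.13 ± 0.56 in the fit without that filter (adjusted p = 0.945). Mitf has several start sites, and which isoforms its probe sets detect was not analysed here.

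**Figure D2:**
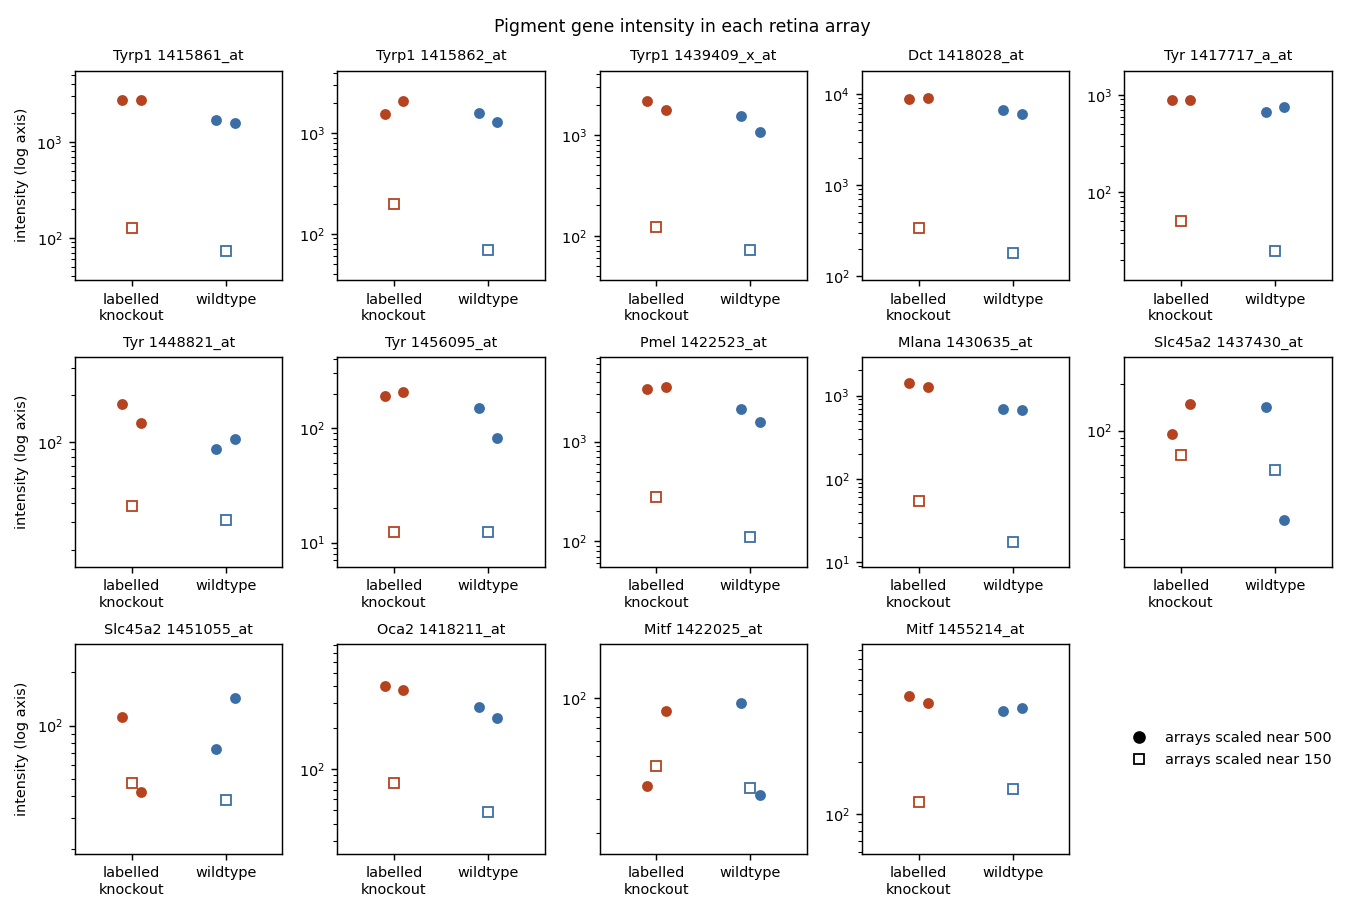
Intensity (log axis) of each of the 14 pigment gene probe sets in every array, with labelled knockout left of wildtype; filled circles are the 2 arrays per group scaled to 500 and open squares the array per group scaled to 150. For Dct, Pmel, Mlana, Oca2 and the brightest Tyrp1 and Tyr probe sets the labelled knockout values lie above the wildtype values of the same scaling set, and for Slc45a2 and Mitf they do not do so in both sets.

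Of the 13 kept probe sets, 4 were called higher, 0 were called lower and 9 did not pass (limma, scaling set as a block, Benjamini-Hochberg over 27022 kept probe sets). This share, 30.8%, stands beside 1.04% of all kept probe sets called higher and 1.22% called lower in the same fit. The genes were chosen with earlier results of these data known, so the shares given here are a description and no test of the set. At an unadjusted p under 0.05, 8 of the 13 were higher, against 9.33% of all kept probe sets. Fold changes were positive for 12 of the 13 and for 47.6% of all kept probe sets. The count of 4 became 2 without labelled knockout replicate 1 and 0 without wildtype replicate 2. In the arrays scaled to 500 alone it was 5, where 5.94% of all kept probe sets were called higher. In 8 of 13 the labelled knockout arrays lay above wildtype without overlap in both scaling sets, against 16.4% of all kept probe sets. The median log2 fold change of the 13 was 0.64, against -0.02 over all kept probe sets. Within the scaling sets it was 0.61 at 500 and 0.74 at 150, where all kept probe sets had medians of -0.03 and 0.02. The 4 called probe sets ranked between the 97.6th percentile for Dct and the 99.6th percentile for Mlana by fold change among all kept probe sets.

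The change at the scale of 150 was larger than that at 500 for 9 of the 13 kept probe sets. Dct, Mlana and the brightest probe set of Tyr differed by 0.40 ± 0.13, 0.65 ± 0.26 and 0.68 ± 0.27 on the log2 scale (150 minus 500; adjusted p = 0.198, 0.264 and 0.267 for the interaction in limma). The second Tyrp1 probe set, with 1.17 ± 0.26, came nearest to passing (adjusted p = 0.0755). None of the 13 passed in limma, where 1.19% of all kept probe sets did. Of the 13, 4 had an unadjusted p under 0.05. The share of all kept probe sets at that level, or with a larger change at 150, was not computed. These counts therefore do not set the 13 apart. Only 1 array per group was scaled to 150, so the error of these differences comes from the arrays scaled to 500.

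**Figure D3:**
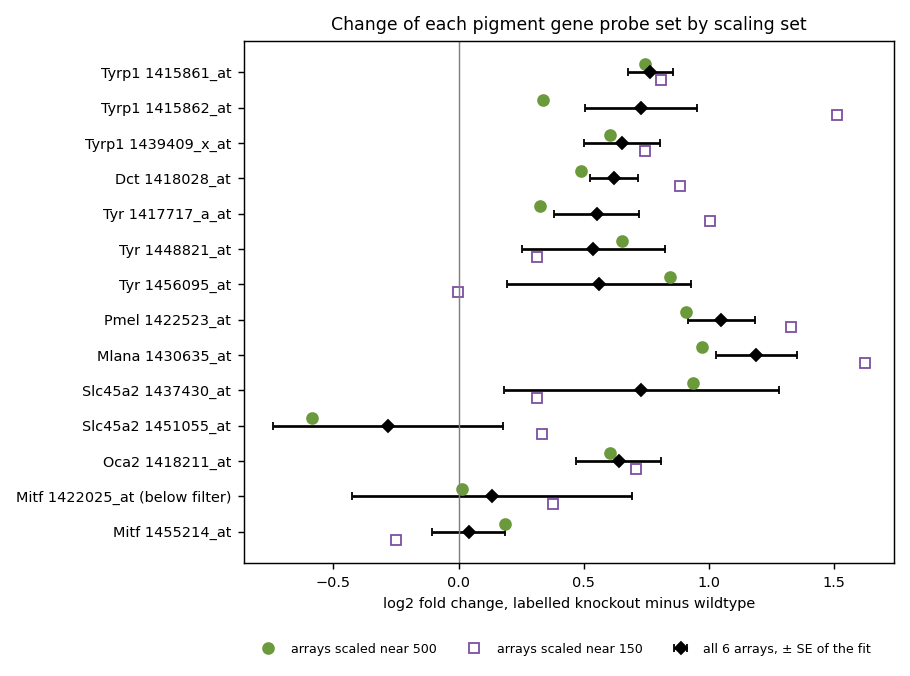
Log2 fold change (labelled knockout minus wildtype) of the 14 probe sets over all 6 arrays (black diamonds, ± SE of the fit), in the 4 arrays scaled to 500 (green circles) and in the 2 scaled to 150 (open purple squares). The Tyrp1, Dct, Pmel, Mlana and Oca2 probe sets lie above 0 in both scaling sets, while the errors of the Slc45a2 and Mitf probe sets are wide or include 0.

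The 2 scaling sets also differed in the level of most of these genes in both genotypes. All kept probe sets were brighter at the scale of 500 by a median of 2.97 times, near the ratio of the scaling targets of 3.33. For Mlana the ratio was 31.0, for Dct 30.2, for the brightest probe set of Tyr 22.7, for that of Tyrp1 21.9 and for Pmel 14.3. In all, 8 of the 13 kept probe sets had a ratio above 10, against 1.77% of all kept probe sets. Oca2 had 5.12, the brighter Mitf probe set 3.38 and the 2 Slc45a2 probe sets 1.37 and 1.99. Probe sets of 1 gene could differ, since the dimmer ones of Tyr had 3.53 (1448821_at) and 12.1 (1456095_at). On the 8 probe sets with a ratio above 10, replicate 3 of each group thus had less signal than its scale accounts for, in labelled knockout as in wildtype. In such bulk samples fewer pigment cells and less RNA per cell cannot be told apart, and what else differed between the scaling sets was not tested. Rpe65, Rgr, Lrat and Ttr of the pigment epithelium, named here after their values were seen, had ratios of 25.5, 23.9, 33.7 and 37.0. They were the 4 highest of the 20 pigment epithelium genes measured, of which 13 lay below 10, with a median of 6.61. At the scale of 150 Lrat read 17.7 in labelled knockout and 5.46 in wildtype, and Rpe65 39.4 and 23.4. These lay under the array medians of 61.5 and 57.3, so the ratios of Lrat and Rpe65 are approximate. The rod genes had a median of 6.56, and 1 of them, Prph2, had 137.

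**Figure D4:**
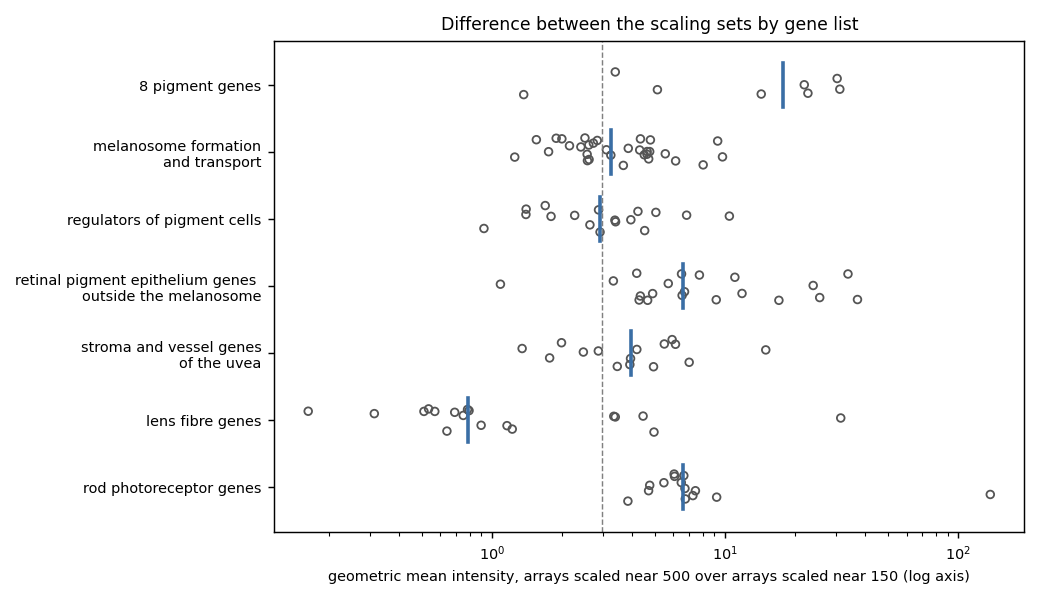
Geometric mean intensity in the 4 arrays scaled to 500 over that in the 2 arrays scaled to 150 (log axis), for the 8 pigment genes and the genes of 6 lists, each by its brightest kept probe set; blue lines are list medians and the dashed line is the median of all kept probe sets, 2.97. The pigment genes have a median of 17.7 and the pigment epithelium genes of 6.61, while most lens fibre genes lie below 1.

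Among other genes of melanosome formation and transport, Myo7a and Gpnmb rose. Of 36 list entries 31 were measured after the filter, and 2 rose, 0 fell and 29 did not pass, where 1.28% of all genes were called higher and 1.48% lower by their brightest kept probe set. Myo7a, a motor protein that moves melanosomes in the pigment epithelium and is also present in photoreceptors, read 1172, 1079 and 227 in labelled knockout replicates 1, 2 and 3, against 604, 569 and 136 in wildtype replicates 1, 2 and 3. It rose by 0.87 ± 0.11 on the log2 scale (adjusted p = 0.00549), with no overlap between the groups. Gpnmb, a melanosome glycoprotein related to Pmel that macrophages also make, read 1474, 1369 and 169 in labelled knockout and 1003, 881 and 83.5 in wildtype replicates 1, 2 and 3. It rose by 0.73 ± 0.12 (adjusted p = 0.0218), although a second, dim Gpnmb probe set under the filter gave -2.36 (adjusted p = 0.367 without the filter). With a replicate block Gpnmb did not pass (adjusted p = 0.0577). The Myo7a call was lost without labelled knockout replicate 1 or wildtype replicate 2 (adjusted p = 0.0581 and 0.0655), and the Gpnmb call without any 1 array scaled to 500 (0.0584 to 0.161).

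The largest changes among the 29 others were those of Bace2, a protease that processes Pmel (0.68, adjusted p = 0.253), Hps5, a subunit of the trafficking complex BLOC-2 (0.56, adjusted p = 0.241), and the small GTPase gene Rab38 (0.53, adjusted p = 0.117). In the arrays scaled to 500 alone 6 of these 31 genes were called higher and 2 lower. Of all genes, 7.48% were called higher and 6.83% lower there. The 2 lower genes of the list were Myo5a, the motor that carries melanosomes on actin (-0.34, adjusted p = 0.0485), and Lyst, a regulator of lysosome size (-0.41, adjusted p = 0.043). Both are named after their values were seen. The list's median was 0.11, against 0.02 over all 12536 genes. Changes were positive for 19 of the 31 genes, against 6660 of the 12536.

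Regulators of pigment cells did not pass singly. Of 20 entries 17 were measured and 0 were called in limma, with 2 at an unadjusted p under 0.05, and the list's median was -0.03. Sox10, a neural crest factor of melanocytes, gave -0.47 (adjusted p = 0.442) on its brightest probe set and 1.37 (adjusted p = 0.191) on another kept one. The melanocortin receptor gene Mc1r gave 0.45 (adjusted p = 0.194) and the Wnt effector gene Lef1 -0.42 (adjusted p = 0.564). In the arrays scaled to 500 alone Mc1r was the 1 gene of the list that was called (0.63, adjusted p = 0.0493). There 7.48% of all genes were called higher. Pax3 and Tfec fell below the filter.

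None of the genes of the pigment epithelium outside the melanosome passed over all 6 arrays. Of 25 entries 20 were measured, 0 were called in limma and 8 had an unadjusted p under 0.05, as had 21.3% of all genes. In the arrays scaled to 500 alone 2 were called, both higher, where 7.48% of all genes were called higher. These were Rgr, a retinal opsin of the pigment epithelium (0.69, adjusted p = 0.00355), and the growth factor gene Bmp4 (0.80, adjusted p = 0.031). Rgr also had the lowest adjusted p of the list over all arrays (0.56 ± 0.13, adjusted p = 0.0573), and both are named after their values were seen. The changes were positive for 16 of 20, against 53.1% of all genes, and the median was 0.28, with 0.22 at the scale of 500 and 0.17 at 150. Stra6, the receptor of retinol-binding protein, gave 1.03 (adjusted p = 0.0696), the lactate transporter gene Slc16a8 1.00 (adjusted p = 0.184) and the amino acid transporter gene Slc6a20a 0.67 (adjusted p = 0.112). The visual cycle isomerase gene Rpe65, singled out after its values were seen, read 848, 933 and 39.4 in labelled knockout and 621, 729 and 23.4 in wildtype replicates 1, 2 and 3. These values did not overlap within a scaling set, and the change was 0.52 ± 0.15 (adjusted p = 0.107). The summed intensity of the 20 genes was 68826, 79431 and 8400 in labelled knockout replicates 1, 2 and 3 and 65237, 69766 and 7892 in wildtype replicates 1, 2 and 3. That of the 8 pigment genes was 18168, 18416 and 1114 in labelled knockout and 12679, 11305 and 654 in wildtype. Within the pigment epithelium sum Cst3, Ttr and Rlbp1 made up 52710, 60963 and 5632 in labelled knockout and 51328, 54463 and 5317 in wildtype, and the other 17 genes 16116, 18468 and 2767 in labelled knockout and 13909, 15303 and 2575 in wildtype. The difference between the 2 lists was not tested.

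Among the lists of other tissues and cells, that of lens fibre genes changed most between the groups. Of 18 measured lens fibre genes 16 rose and 0 fell, with a median of 3.60. Their summed intensity was 78136, 67343 and 51984 in labelled knockout replicates 1, 2 and 3, against 6661, 5504 and 10090 in wildtype replicates 1, 2 and 3. None was at 0, and the lowest reading was 4.06, of Cryga in wildtype replicate 3. Of 15 measured stroma and vessel genes of the uvea 2 rose, 0 fell and 13 did not pass. Their median was 0.31, which was 0.53 at 500 and -0.05 at 150. Changes were positive for 12 of the 15 at 500 and 7 at 150, against 6642 and 6581 of all 12536 genes. The 2 that rose were Dcn, a matrix proteoglycan of fibroblasts (2.13 ± 0.30, adjusted p = 0.00882), and Acta2, smooth muscle actin (1.38 ± 0.15, adjusted p = 0.00225). The Dcn call was lost without labelled knockout replicate 1 (adjusted p = 0.0616) or wildtype replicate 2 (0.0792). The summed intensity of the 15 genes was 6839, 6937 and 1684 in labelled knockout and 4936, 4061 and 1255 in wildtype replicates 1, 2 and 3. Of 14 measured rod genes 1 rose, Cngb1, a subunit of the rod channel (0.34 ± 0.070, adjusted p = 0.0428, and 0.105 with a replicate block), and 0 fell. The Cngb1 call was also lost without the filter (adjusted p = 0.0765), with quantile normalization (0.0679 and 0.0833) and without any 1 array scaled to 500 (0.120 to 0.231). In the arrays scaled to 500 alone 7 rod genes were called lower and 1 higher, where 6.83% of all genes were called lower. Among the 7 were Pde6a, a phosphodiesterase subunit (-0.67, adjusted p = 0.000211), and Prph2 (-0.59, adjusted p = 0.00273). The rod list's median was -0.16, and its summed intensity was 318294, 353419 and 55137 in labelled knockout and 393845, 392530 and 55490 in wildtype. The ratio of 3′ to 5′ signal of Actb, a sign of RNA quality, was 1.82, 1.66 and 1.67 in labelled knockout and 1.83, 1.89 and 2.32 in wildtype replicates 1, 2 and 3. The part of these shifts in the change of the pigment genes was not tested.

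The pigment genes and the lens genes differed in how their level changed between the scaling sets. Lens fibre genes had a median ratio of 0.79 between the scales of 500 and 150, while the pigment genes had a median ratio of 17.7. The ranges overlapped, from 0.163 to 31.3 for lens fibre genes and from 1.37 to 31.0 for pigment genes. All 18 lens fibre genes had positive changes in each scaling set, as did 8 of the 8 pigment genes at 500 and 7 of the 8 at 150, by their brightest probe sets. Among all 12536 genes, 6642 had positive changes at 500 and 6581 at 150.

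**Figure D5:**
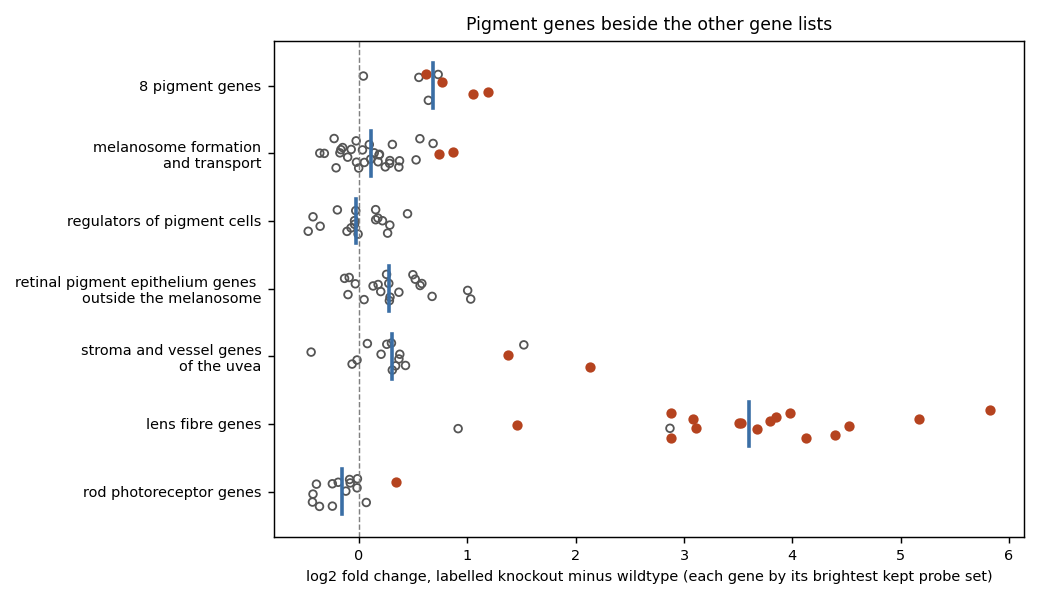
Log2 fold change (labelled knockout minus wildtype) of the 8 pigment genes and of the measured genes of 6 lists, each by its brightest kept probe set. Filled red points passed the test, open points did not, and blue lines are list medians, 0.69 for the 8 pigment genes, 0.11 for melanosome formation and transport, 0.28 for pigment epithelium genes and 3.60 for lens fibre genes.

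To see which genes had the most similar pattern, the log2 intensity of each gene, centred on its scaling set, was set beside the mean of the 8 pigment genes over the 6 arrays. The 10 most alike of 12528 genes had Pearson correlations of 0.994 to 0.999. They were Ntmt1, Rex1bd, S100a1, Ptpra, Syf2, Cldn7, 2610020C07Rik, Wbp1, St6galnac6 and Uqcc2, and none belonged to any of the 6 lists. By the test over all kept probe sets Cldn7, a claudin of epithelial tight junctions, rose by 1.19 ± 0.22 (adjusted p = 0.0286) with 1.14 at 500 and 1.29 at 150. Also 2610020C07Rik (0.83, adjusted p = 0.0383), the sialyltransferase gene St6galnac6 (0.46, 0.0477) and Uqcc2, an assembly factor of respiratory complex III (0.37, 0.0487), rose, and the other 6 did not pass. With a replicate block none of these 4 passed in limma (adjusted p = 0.0636 to 0.112). As many as 260 genes reached a correlation of 0.95. With only 6 arrays, in 2 groups of 3, the correlations are given as a description with no test. The 10 genes were picked on these same arrays for likeness to a mean that differed between the groups. Their positive changes and calls follow in part from that choice and lend no support of their own.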

How the data were processed

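The deposited values were intensities on a linear scale, 1 per probe set and array, made by the authors with GCOS 1.4 and MAS5, which the submitters' processing notes list. Of 45101 probe sets 64 controls were left out. Scaling sets were read from each array's mean after trimming 2% at either end. Groups and replicate numbers came from the titles, and the labels do not state whether the pools hold different animals. The p-values then reflect only how these samples vary, which may be technical, and the small number of arrays limits precision.

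Intensities were transformed to log2 and not normalized again. A filter removed probe sets with a mean log2 intensity under the 40th percentile (a geometric mean of 54.5) and left 27022. Groups were compared with limma 3.58.1 in R 4.3.3 (two-sided, variance trend, scaling set as a block) with Benjamini-Hochberg adjustment over all kept probe sets and a threshold of 0.05. The script was tested on simulated data. Names came from the platform annotation, with 34945 probe sets having 1 symbol, 932 several and 9160 none. For a list gene, the brightest of its kept probe sets by mean was used. All probe sets of the 8 genes are given; of each list, genes that passed and up to 3 others with the largest change are named, and the 10 genes most like the pigment gene mean. The genes and lists were chosen with earlier results of these data known. Alternatives were no block, a replicate block, no filter, an added 16, quantile normalization, no variance trend and arrays left out.

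Replicate numbers were checked for pairing: deviations from group means correlated at 0.570, 0.670 and 0.843 for numbers 1, 2 and 3, above 0.1 in each. Crossed pairs of numbers 1 and 2 correlated at 0.627 and 0.607. The pair numbered 1 correlated at 0.0153 within the arrays scaled to 500, so the pairing seen is that of the scaling sets.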

Additional observations from a re-analysis of the deposited data

How the results depend on the processing

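Main counts were 4 pigment gene probe sets higher and 0 lower, 280 and 329 of all kept probe sets higher and lower, and 2 genes called on the 3 pigment cell lists together. With no block limma called 0, 0 and 0 of these (0 pigment gene probe sets, 118 of all and 0 list genes at an unadjusted p under 0.05). With no variance trend it called 0 pigment gene probe sets (9 at an unadjusted p under 0.05), 13 and 6 of all, and 0 list genes (14 unadjusted). A replicate block left 4 pigment gene probe sets, 93 and 107 of all, and 1 list gene. Without the filter 185 of all probe sets were higher. The arrays scaled to 500 alone gave 5 pigment gene probe sets, 1605 and 2082 of all, and 11 list genes (9 higher, 2 lower). By their brightest kept probe sets, 1794 of all 12536 genes were called in those arrays. Leaving out 1 array at a time gave 0 to 5 pigment gene probe sets higher, 39 to 1513 and 38 to 2209 of all, and 0 to 11 list genes. The cause of these differences was not tested. Quantile normalization over all arrays made 1 pigment gene probe set differ between the scaling sets, against 0 otherwise.

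Fold changes of Tyrp1, Dct, Tyr, Pmel, Mlana and Oca2 were positive under every alternative. Leaving out arrays moved the change of the 2 Slc45a2 probe sets from -0.018 to 1.36 and from -0.59 to 0.21, and that of the 2 Mitf probe sets from -0.0399 to 0.19 and from -0.28 to 0.62. The reversed values were -0.018 for the first Slc45a2 probe set, 0.21 and 0.08 for the second, -0.0399 and -0.015 for the brighter Mitf probe set, and -0.20 and -0.28 for the dimmer one. The replicate block changed no other call than those named, of Gpnmb, Cngb1 and the 4 genes of like pattern. Leaving out 1 array scaled to 500 ended the calls of those 4 in most cases (Cldn7 adjusted p = 0.110 to 0.175 without labelled knockout replicate 1 or 2 or wildtype replicate 2). The dim probe sets of Slc45a2, the 2 dimmer ones of Tyr and 1 of Mitf had standard errors of 0.28 to 0.56, against 0.091 for the brightest of Tyrp1.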
